A study of Mus musculus with 8 samples.

Results

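The genes described here are 9 organic anion transporters of the Slco family in fasted mouse liver: Gm6614, Slco1a1, Slco1a4, Slco1a5, Slco1a6, Slco1b2, Slco1c1, Slco2a1 and Slco2b1. They were chosen by symbol from a table of 35275 Ensembl genes, in which 17 rows carry an Slco symbol or are Gm6614 or its neighbor Gm5724. The choice was made with the genotype differences of these same libraries known, Gm6614 having been singled out for its rise, so the genotype values below are a description. The study asked what hepatic pyruvate carboxylase (Pcx) is needed for in fed and fasted mice and on high-fat and ketogenic diets. Pcx is the mitochondrial enzyme that makes oxaloacetate from pyruvate. RNA was sequenced in the fasted state only. Liver RNA was sequenced from 4 Pcx L-/- mice and 4 littermate Pcx f/f controls, which the sample labels call WT. All 8 were males on chow of the strain labelled C57BL/6, aged 9 weeks and fasted for 24 h, and both genotypes carried Pcx alleles with a floxed exon 10, made from the C57BL/6NTac Tm1a allele with the Flpe deleter. In Pcx L-/- mice the exon was removed by Cre from the Albumin promoter, which acts in hepatocytes, so other liver cells kept the gene. Each library came from the frozen liver of 1 mouse.

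Organic anion transporting polypeptides sit in the cell membrane and carry large amphipathic anions without coupling to sodium. In the liver they lie on the blood-facing side of the hepatocyte, where they take up bilirubin, conjugated bile acids, steroid sulfates, thyroid hormones and many drugs. Most mouse members used in liver belong to the Slco1 branch, which has expanded in rodents into a run of closely related genes.

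That run was visible in the annotation (GENCODE M21, build GRCm38). Slco1c1, Slco1b2, Gm5724, Slco1a4, Slco1a1, Gm6614, Slco1a6 and Slco1a5 followed one another within 798.6 kb of chromosome 6, from 141524368 to 142322981, the first 2 on the plus strand and the other 6 on the minus strand. Gm6614, annotated as protein coding, lay at chr6:141971845-142011414 between Slco1a1 (chr6:141907282-141946962) and Slco1a6 (chr6:142085761-142208521). Slco2b1 lay elsewhere, at chr7:99657804-99711340, and Slco2a1 at chr9:102988712-103096002. The coding sequence of Gm6614 was 2013 bases long, the same length as those of Slco1a1, Slco1a4, Slco1a5 and Slco1a6. It was identical to them at 85.3%, 86.6%, 87.1% and 83.9% of bases, and to Slco1b2, Slco2b1, Slco2a1 and Slco1c1 at 64.7%, 65.3%, 61.8% and 61.6% of aligned bases.

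The kinship is easiest to see in the 39 coding bases that spell the family signature, a stretch rich in tryptophan. They are printed from exon 7 of Gm6614 (minus strand, chr6:141992502-141992540), from Slco2b1 (exon 7, minus strand, chr7:99682824-99682862) and from Slco2a1 (exon 6, plus strand, chr9:103070251-103070289), with the bases that differ from Gm6614 in capitals.
Gm6614: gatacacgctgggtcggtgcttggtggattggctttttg
Slco2b1: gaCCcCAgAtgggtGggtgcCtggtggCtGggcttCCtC
Slco2a1: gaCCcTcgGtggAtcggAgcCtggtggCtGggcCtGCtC
The pattern used to find this stretch had no match in Slco1b2 or Slco1c1, which are not compared here. Slco1a1, Slco1a4, Slco1a5, Slco1a6 and Gm5724 had the 39 bases of Gm6614 without a difference, whereas Slco2b1 differed at 12 and Slco2a1 at 13. Such stretches matter for counting, because a read that fits several genes cannot be assigned to one. Of the 2447 distinct 50-base words in the transcripts of Gm6614, 109 (4.45%) also occurred in a transcript of another gene, and of its 100-base words 58 of 2410 (2.41%) did. The longest run without a difference between the coding sequences of Gm6614 and Slco1a6 was 157 bases, against 111 for Slco1a5 and 96 for both Slco1a1 and Slco1a4.

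Elsewhere the genes are easily told apart. Of all stretches of 60 coding bases, the one in which even the best match among Slco1a1, Slco1a4, Slco1a5 and Slco1a6 differed most from Gm6614 lay in exon 9 (minus strand, chr6:141989133-141989192). It is printed with the matching stretches of Slco1a1 (chr6:141923010-141923069), Slco1a4 (chr6:141817762-141817821) and Slco1a5, the relative with the highest coding identity (chr6:142248689-142248748), all on the minus strand, with the bases that differ from Gm6614 in capitals.
Gm6614: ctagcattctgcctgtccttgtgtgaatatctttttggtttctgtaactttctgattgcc
Slco1a1: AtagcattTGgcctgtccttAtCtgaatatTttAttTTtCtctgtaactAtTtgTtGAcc
Slco1a4: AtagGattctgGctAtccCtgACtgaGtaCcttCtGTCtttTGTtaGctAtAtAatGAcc
Slco1a5: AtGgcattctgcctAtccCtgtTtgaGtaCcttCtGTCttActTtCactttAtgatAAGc
Here Slco1a1 differed from Gm6614 at 15 of the 60 bases, Slco1a4 at 22, Slco1a5 at 18 and Slco1a6, not printed, at 20.

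The libraries held between 12016242 and 20023108 reads on genes. Pcx lay between 32.7 and 44.6 normalized CPM (counts per library size, scaled by edgeR's TMM factors) in the Pcx L-/- livers and between 847 and 1299.5 in the controls, or 3.60% of the control mean, so each label fitted its genotype. Across the 13168 genes tested with edgeR's quasi-likelihood test, 3632 (27.6%) had an adjusted p under 0.05, with 1855 (14.1%) higher and 1777 (13.5%) lower in Pcx L-/- liver, and the median log2 fold change was -0.01. With scaling by library size alone the median was 0.28 and 81.8% of the genes called were higher, against 51.1% with TMM. FPKM values share that scaling, so they are used below for the order of genes within a genotype and the values of single mice, and TMM for the fold changes. Where FPKM are summed over genes, the sum divided by the TMM factor of each library is given too, a choice made after seeing the data. Pcx L-/- replicate 1 stood apart from the other Pcx L-/- mice for most of the genes described here, although its Pcx level, 44.6 CPM, was close to theirs.

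In control liver, Slco1b2 was by far the most abundant member. Its mean level was 304 ± 17.6 FPKM (SD, n = 4), followed by Slco1a1 at 44.5 ± 5.09, Slco1a4 at 43.4 ± 15.5, Slco2b1 at 30.8 ± 3.29 and Slco2a1 at 17.2 ± 3.47. The ranges of Slco1a1 and Slco1a4 overlapped, as did those of Slco1a4 and Slco2b1, whereas Slco1b2 lay above and Slco2a1 below all of these. Gm6614 came next at 0.179 ± 0.131 FPKM, close to nothing. In Pcx L-/- liver Slco1b2 still led at 199 ± 59.5 FPKM, but the members below it had drawn together: Slco1a4 at 22.5 ± 8.13, Slco1a1 at 21.5 ± 6.66, Slco2a1 at 20.4 ± 4.74, Slco2b1 at 18.3 ± 6.45 and Gm6614 at 12.2 ± 6.25. Each of these 5 overlapped with its neighbor in that order.

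**Figure D1:**
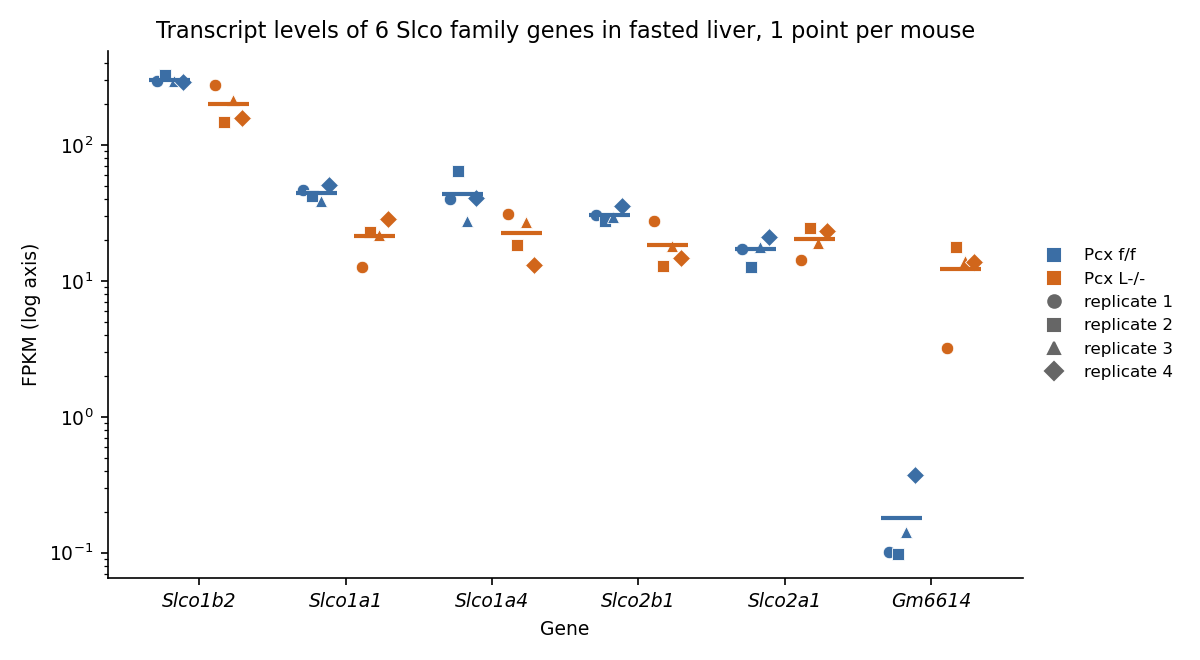
FPKM (log axis) of 6 Slco family genes in each of the 8 livers, with control mice in blue, Pcx L-/- mice in orange, a marker shape for each replicate and a horizontal bar at the mean. Gm6614 is near 0.1 to 0.4 FPKM in the controls and reaches 3.21 to 17.7 FPKM in Pcx L-/- liver, while Slco1b2, Slco1a1 and Slco2b1 lie lower in Pcx L-/- mice without overlap.

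Of the 9 members, 6 had enough reads to be tested. At an adjusted p under 0.05, 1 was higher and 4 were lower in Pcx L-/- liver, beside the 14.1% and 13.5% of all genes tested given above. Values of the genotypes did not overlap for 4 of the 6 in normalized CPM, which also held for 27.6% of all genes tested. Nothing is read from these counts, since the members were chosen on this contrast.

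Gm6614 was the member that was higher. No transport substrate is given here for this predicted gene. It had 5, 4, 6 and 11 reads in control replicates 1 to 4, and 146, 830, 652 and 506 reads in Pcx L-/- replicates 1 to 4. In FPKM these were 0.102, 0.0981, 0.143 and 0.374 in the controls and 3.21, 17.7, 14.1 and 13.7 in Pcx L-/- liver. The genotypes were far apart, although the lowest Pcx L-/- mouse, replicate 1, was well below the other 3. Normalized for library composition, the mean went from 0.501 ± 0.403 to 26.2 ± 12.6 CPM (SD, n = 4 each). The log2 fold change, 5.87 (SE 0.56), was the 4th highest log2 fold change of the 13168 genes tested, after Vmn2r3, Nupr1 and Cox6a2, which were singled out by this ranking. The control level rests on 26 reads in all, for which counting error alone gives an exact Poisson interval of 17.0 to 38.1 at 95%, so the fold change is less certain than the Pcx L-/- level, which rests on 2134 reads. A pseudocount also weighs heavily on such a low level, and on the log2(FPKM + 1) scale the difference was 3.29.

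The principal uptake carrier of the mouse hepatocyte, Slco1b2, which takes up bilirubin and bile acids and is the counterpart of human SLCO1B1 and SLCO1B3, was lower. It was at 295, 330, 297 and 294 FPKM in control replicates 1 to 4 and at 277, 147, 214 and 159 FPKM in Pcx L-/- replicates 1 to 4. The controls were tightly grouped, and the highest Pcx L-/- mouse, replicate 1, lay just below them. The log2 fold change was -0.86 (SE 0.23), from 1110 ± 62.3 to 610 ± 239 CPM (SD, n = 4 each).

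Slco1a1, a carrier of bile acids and steroid conjugates that is known to be more abundant in male than in female liver, had the lowest log2 fold change of the members with all 8 mice, though not without Pcx L-/- replicate 1. It was at 46.5, 42.0, 39.1 and 50.6 FPKM in control replicates 1 to 4 and at 12.7, 23.0, 21.7 and 28.8 FPKM in Pcx L-/- replicates 1 to 4. All Pcx L-/- mice lay below all controls, and here replicate 1 was the lowest rather than the highest. The log2 fold change was -1.36 (SE 0.19), which left 38.9% of the control mean in CPM.

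Slco1a4, which carries digoxin and bile acids in the liver and at the blood-brain barrier, had a wide spread among the controls. It was at 40.3, 64.7, 27.6 and 40.9 FPKM in control replicates 1 to 4 and at 31.0, 18.5, 27.3 and 13.2 FPKM in Pcx L-/- replicates 1 to 4. The lowest control lay below the highest Pcx L-/- mouse, so the genotypes overlapped. The log2 fold change was -1.20 (SE 0.31).

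Slco2b1, which takes up steroid sulfates and is found in many tissues, was at 30.6, 27.7, 29.6 and 35.4 FPKM in control replicates 1 to 4. In Pcx L-/- replicates 1 to 4 it was at 27.5, 13.0, 18.1 and 14.7 FPKM. The genotypes were separated only by the narrow gap between Pcx L-/- replicate 1 and control replicate 2. The mean went from 149.9 ± 25.1 to 74.7 ± 34.0 CPM (SD, n = 4 each), which is 49.8% of control, with an SE of 0.26 on the log2 scale. An antisense gene within Slco2b1, Gm15635, had between 12 and 37 reads in each library, against 973 or more for Slco2b1, and no source used here says whether reads were counted by strand.

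Slco2a1, the prostaglandin transporter, known from endothelial cells, was the tested member that did not pass the threshold. It was at 17.3, 12.6, 17.7 and 21.0 FPKM in control replicates 1 to 4 and at 14.3, 24.7, 19.2 and 23.5 FPKM in Pcx L-/- replicates 1 to 4. The ranges overlapped widely. The log2 fold change was -0.06 (SE 0.19) with TMM, and it was positive, at 0.25, with scaling by library size alone and, at 0.24, on log2(FPKM + 0.1), in both cases near the median of all genes under the same scaling.

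The other 3 members were at the edge of detection in every liver. Slco1c1, the thyroxine transporter of brain capillaries, had at most 4 reads in any library, 7 in the controls and 4 in Pcx L-/- liver. Slco1a6, known mainly from kidney, had 2 reads in the controls and 1 in Pcx L-/- liver, although it is one of the Slco1a genes that share sequence with Gm6614. Slco1a5, known from the choroid plexus, had 0 reads in all 8 libraries, which allows up to 0.0456 CPM in the controls and 0.0419 CPM in Pcx L-/- liver (a floor of 3 reads over each genotype, counting error only). At this depth no difference between genotypes was detectable for these genes. Of the 8 other genes of the family in the table, Slco3a1 had between 36 and 94 reads per library and a log2 fold change of 0.10 (SE 0.23), and Slco4a1 had between 7 and 45 reads and a log2 fold change of -0.74 (SE 0.46). Neither passed the threshold. Gm5724, the nearest relative of Gm6614 outside the list, had at most 3 reads in any library, and the remaining 5 genes had at most 1.

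**Figure D2:**
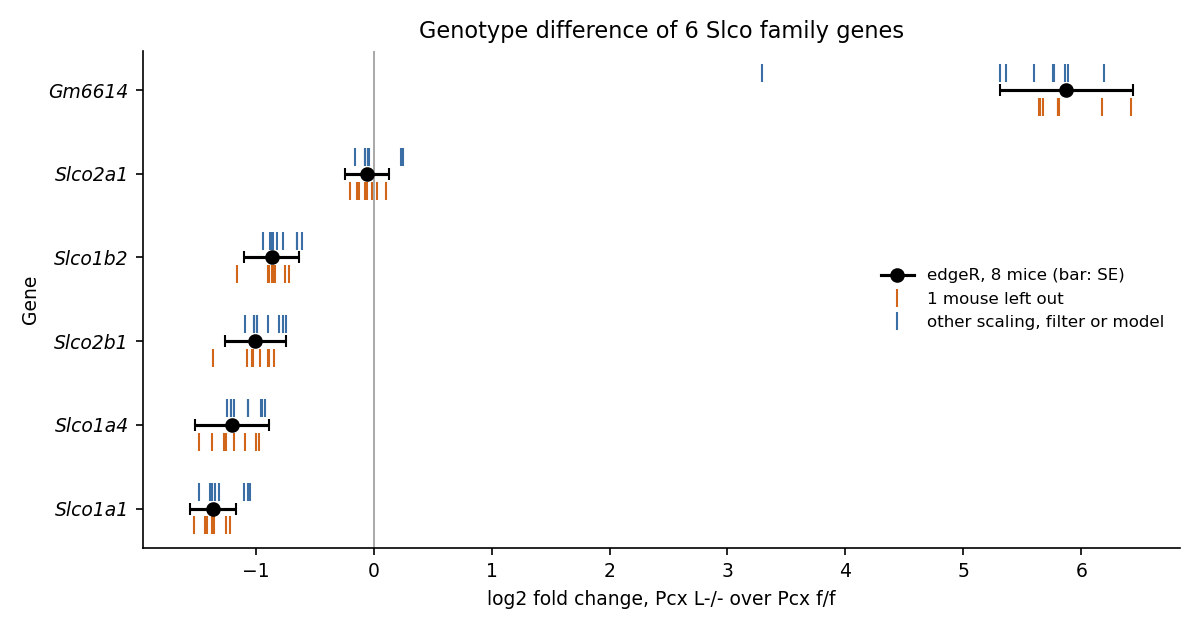
log2 fold change (x axis, Pcx L-/- over Pcx f/f) of the 6 tested genes (y axis), with black points for edgeR's estimate over 8 mice and bars for its SE. Orange ticks show the value with each mouse left out and blue ticks the value under other scalings, filters and models. Gm6614 stays between 3.29 and 6.42, the 4 lower genes stay below 0, and Slco2a1 straddles 0.

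Leaving out Pcx L-/- replicate 1 widened most of these differences. Without it the log2 fold change was 6.17 for Gm6614, -1.16 for Slco1b2, -1.36 for Slco2b1 and -1.48 for Slco1a4, but it shrank to -1.22 for Slco1a1. The same mouse was the only Pcx L-/- mouse numbered in the 500s. Among mice numbered in the 500s, 2 controls and this mouse, the difference in log2(CPM + 0.5) was 3.50 for Gm6614, -1.84 for Slco1a1, -0.77 for Slco1a4, -0.22 for Slco1b2 and -0.13 for Slco2b1. Among the 2 controls and 3 Pcx L-/- mice numbered in the 800s it was 4.78, -1.26, -1.23, -1.18 and -1.48 in the same order. With 1 mouse in a cell, the mouse and its number series cannot be told apart. Of the 4 lower members, 2 still passed the threshold without Pcx L-/- replicate 2, and 2 without Pcx L-/- replicate 4. The log2 fold changes lost were -1.09 for Slco1a4 and -0.72 for Slco1b2 in the first case, and -0.75 for Slco1b2 and -0.89 for Slco2b1 in the second.

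Gm6614 was then compared with each paralog within the same mouse, by the log2 ratio of reads (0.5 added to each count), so that library size plays no part. Against Slco1a1, its neighbor on the chromosome, the ratio was -9.37, -9.24, -8.65 and -7.69 in control replicates 1 to 4 and -2.65, -1.05, -1.30 and -1.74 in Pcx L-/- replicates 1 to 4. The genotypes differed by 7.06 (SE 0.52), and the lowest Pcx L-/- mouse was far above the highest control. The difference was 6.91 (SE 0.95) against Slco1a4, 6.61 (SE 0.88) against Slco1b2, 6.76 (SE 0.87) against Slco2b1 and 5.71 (SE 0.52) against Slco2a1. These 5 differences share the Gm6614 reads and are one change seen from several sides. For none of the 5 paralogs did the genotypes overlap. Slco1a5, Slco1a6 and Slco1c1 had too few reads for a ratio.

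**Figure D3:**
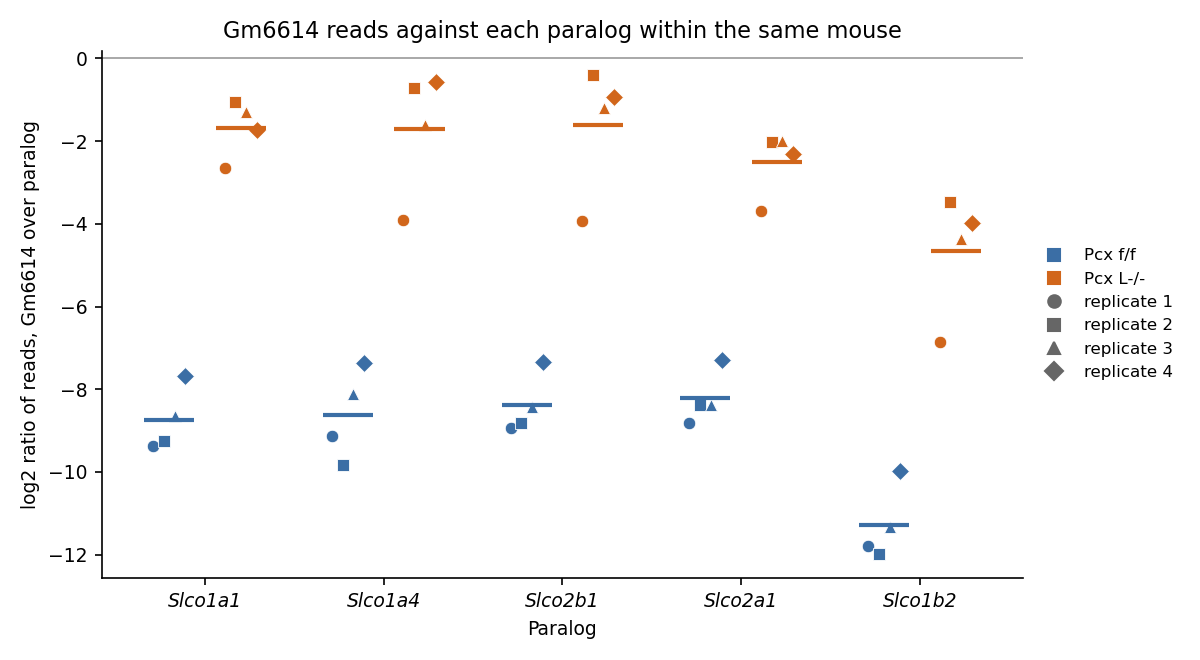
log2 ratio of Gm6614 reads to the reads of each paralog (y axis, 0.5 added to each count) in the same mouse, with control mice in blue, Pcx L-/- mice in orange, marker shapes for replicates and bars at the means. For Slco1a1 the 4 controls lie between -9.37 and -7.69 and the 4 Pcx L-/- mice between -2.65 and -1.05, and Pcx L-/- replicate 1 is the lowest orange point for every paralog.

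On the FPKM scale, which divides the reads by 1 length per gene, Gm6614 reached the level of some of its relatives in Pcx L-/- liver. In reads it stayed below each of the 5 paralogs in every mouse. The highest log2 ratio was -0.39, against Slco2b1 in Pcx L-/- replicate 2. The percentages and shares below therefore depend on the lengths used for the FPKM. It was at 77.2%, 64.9% and 47.7% of Slco1a1 in Pcx L-/- replicates 2 to 4 but at 25.3% in replicate 1, where the controls were between 0.219% and 0.738%. Against Slco2b1 it was at 136%, 77.7% and 93.0% in replicates 2 to 4 and at 11.7% in replicate 1. Against Slco1b2 it did not exceed 12.1% in any mouse. Of the summed FPKM of the 5 Slco1a-type members, Gm6614 made up 0.207% ± 0.143 in controls and 20.9% ± 9.92 in Pcx L-/- liver (SD, n = 4 each).

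The summed level was lower in Pcx L-/- liver even with Gm6614 included. The 5 Slco1a-type members summed to between 66.8 and 107 FPKM in the controls and to between 46.8 and 63.1 FPKM in Pcx L-/- liver. The sum over all 9 members went from 440.1 ± 27.8 FPKM in controls to 294 ± 57.0 FPKM in Pcx L-/- liver (SD, n = 4 each), and the highest Pcx L-/- mouse, at 366 FPKM, lay below the lowest control, at 411 FPKM. Divided by the TMM factors, the sum over all 9 was between 447 and 531 in controls and between 209 and 377 in Pcx L-/- liver, and that of the 5 Slco1a-type members between 72.5 and 113 and between 48.3 and 54.6. Slco1b2 made up 69.1% ± 2.40 of the sum over all 9 in controls and 66.7% ± 6.85 in Pcx L-/- liver (SD, n = 4 each), shares that overlapped.

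**Figure D4:**
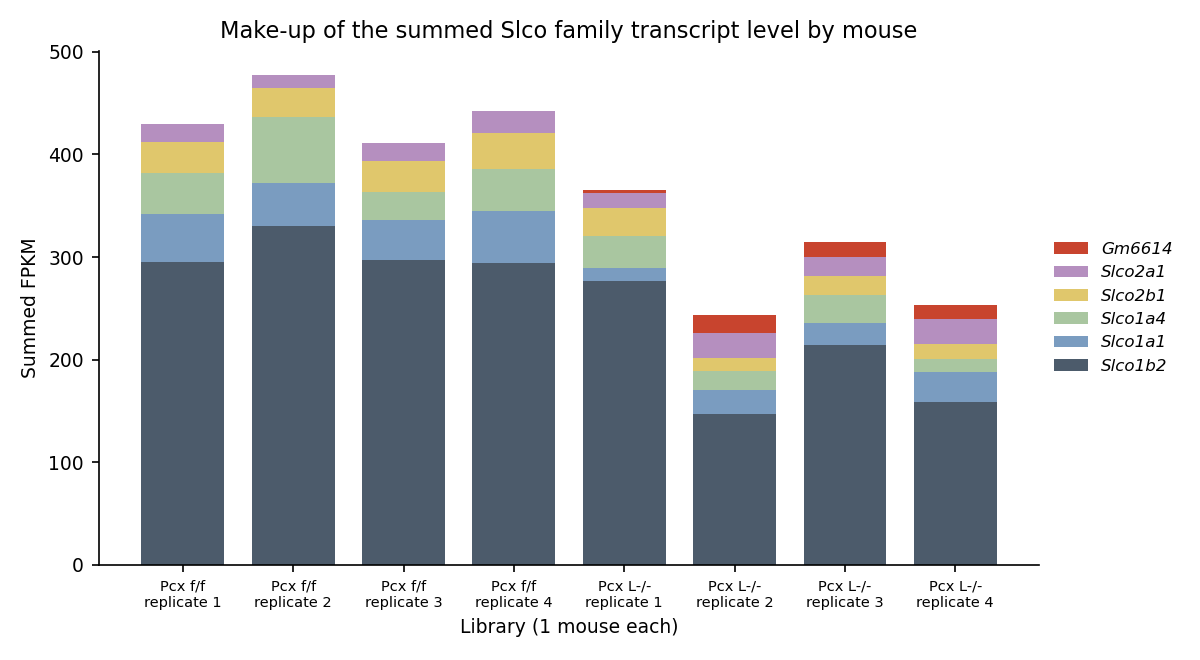
Stacked FPKM of 6 Slco family genes (y axis, from 0) in each library (x axis), with the other 3 members too low to be seen. The summed level is 411 to 477 FPKM in the 4 controls and 244 to 366 FPKM in the 4 Pcx L-/- livers, and Gm6614 appears as a red segment only in the Pcx L-/- bars.

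In RNA from whole liver, fewer cells of a type and less RNA per cell cannot be told apart. Summed over 7 hepatocyte marker genes, among them Alb, Apoa1 and Hnf4a, the level was between 43521 and 47502 FPKM in controls and between 31040 and 39523 FPKM in Pcx L-/- liver. Of the 7, 1 (Apoa1) was lower at the threshold, and their median log2 fold change was -0.50. Abundant genes weigh most in such a sum, and Alb averaged 74725 CPM in controls, against 9550 for Apoa1 and less for the others. In normalized CPM the genotypes did not overlap for Alb and Apoa1 and overlapped for the other hepatocyte markers. Of the markers of the other cell types tested, the Kupffer cell marker Cd68 was higher (0.86, SE 0.26) and the cholangiocyte marker Sox9 lower (-0.79, SE 0.22). The 10 endothelial markers summed to between 107 and 125 FPKM in controls and between 102 and 140 FPKM in Pcx L-/- liver, the 8 Kupffer cell markers to between 98.1 and 148 and between 123 and 199 FPKM, and the 8 stellate cell markers to between 114 and 255 and between 113 and 257 FPKM. The 6 red blood cell markers ranged more widely, from 317 to 1231 FPKM in controls and from 559 to 5338 FPKM in Pcx L-/- liver. The 7 cholangiocyte markers summed to between 9.25 and 20.3 and between 10.8 and 15.5 FPKM, with Cftr under 0.1 FPKM in every library. Divided by the TMM factors, the hepatocyte sum was between 46691 and 56509 in controls and between 26644 and 40762 in Pcx L-/- liver, and the genotypes overlapped for each of the other 5 lists. The hepatocyte sum moved in the same direction as the 4 lower members, and its part in their difference was not tested.

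The upstream sequences of the 3 lower members on chromosome 6 are shown because these genes lie in one run and had lower means in Pcx L-/- liver, although not in the same order of mice. They are the 250 bases before the RefSeq start site in GRCm38, with Slco1b2 from chr6:141629268-141629517 on the plus strand, Slco1a4 from chr6:141856221-141856470 and Slco1a1 from chr6:141946963-141947212 on the minus strand. The RefSeq start of Slco1b2 and of Slco1a1 is that of a GENCODE transcript, and that of Slco1a4 lies 21 bases upstream of the nearest, Slco1a4-202, while the transcript used above for its coding sequence starts further downstream. Capitals mark matches on either strand to AGGTCA, the half-site bound by many nuclear receptors, or to TTCNNNGAA, the motif bound by STAT factors.
Slco1b2: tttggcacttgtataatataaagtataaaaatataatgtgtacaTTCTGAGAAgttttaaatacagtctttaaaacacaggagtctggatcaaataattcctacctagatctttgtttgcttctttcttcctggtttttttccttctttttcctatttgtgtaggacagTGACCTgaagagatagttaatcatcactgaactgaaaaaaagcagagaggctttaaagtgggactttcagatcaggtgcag
Slco1a4: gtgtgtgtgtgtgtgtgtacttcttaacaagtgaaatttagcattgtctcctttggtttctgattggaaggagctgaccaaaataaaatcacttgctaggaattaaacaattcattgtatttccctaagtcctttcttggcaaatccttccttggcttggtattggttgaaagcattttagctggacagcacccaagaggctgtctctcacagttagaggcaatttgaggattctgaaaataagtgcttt
Slco1a1: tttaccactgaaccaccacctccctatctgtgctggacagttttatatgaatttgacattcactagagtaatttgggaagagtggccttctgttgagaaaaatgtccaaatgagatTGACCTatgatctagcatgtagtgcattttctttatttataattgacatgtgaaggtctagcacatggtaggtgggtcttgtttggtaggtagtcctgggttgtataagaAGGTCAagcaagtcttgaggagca
Slco1b2 had 1 half-site and 1 STAT match, Slco1a1 had 2 half-sites and Slco1a4 had none. Over windows of 300 bases, which add 50 bases after the start, 16.3% of the 32851 RefSeq promoters held the half-site and 8.30% the STAT motif. The motifs TGATGNAA (C/EBP-ATF) and TGACGTCA (CRE) and the half-site repeated after a gap of 1 base occur in 3.97%, 1.79% and 0.0396% of these windows and had no match in the 3 genes. No promoter of Gm6614 is shown, because the start site in the RefSeq table, at position 142008745, has a further exon upstream in 2 of the 3 GENCODE transcripts, which begin at position 142011414. The 60 bases of that exon, coding in the transcript used here, matched the first 60 of Slco1a4 and Slco1a5 at 53 positions each, of Slco1a6 at 50 and of Slco1a1 at 48.

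Other carriers listed as bringing solutes into the hepatocyte from the blood changed in both directions. The list came from general knowledge, includes Slc22a18 and Slc27a5, and was not checked for this role gene by gene. Of 15 listed carriers outside the family 14 were tested. By edgeR's test at an adjusted p under 0.05, 7 were lower and 3 higher in Pcx L-/- liver, where 13.5% and 14.1% of all genes were. The median log2 fold change was -0.60, against -0.01 for all genes tested and -0.50 for the 7 hepatocyte markers. Slc10a1, the sodium-dependent bile acid carrier that works beside Slco1b2, was at 749, 874, 751 and 835 CPM in control replicates 1 to 4 and at 571, 214, 289 and 243 CPM in Pcx L-/- replicates 1 to 4, again with replicate 1 nearest to the controls (log2 fold change -1.29, SE 0.27, edgeR adjusted p = 0.00644). Slc22a28 and Slc22a30, members of the organic anion and cation transporter family, had log2 fold changes of -3.21 (SE 0.56) and -1.66 (SE 0.30). Slc22a28 rests on few reads, at 1.18 CPM on average in controls and 0.116 CPM in Pcx L-/- liver. The highest were the organic cation transporter Slc22a3 at 1.64 (SE 0.22), the monocarboxylate carrier Slc16a1 at 0.84 (SE 0.16) and Slc22a15 at 0.43 (SE 0.13).

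Pumps that carry solutes out of the cell were likewise divided. Of 13 tested of 15 listed, 5 were lower and 3 higher (13.5% and 14.1% of all genes). The median log2 fold change was -0.42, against -0.01 for all genes and -0.50 for the 7 hepatocyte markers. Abcc4, which exports conjugated bile acids and steroids back to the blood, had the largest increase of the list, from 4.43 ± 1.11 to 58.4 ± 35.9 CPM (SD, n = 4 each; log2 fold change 3.74, SE 0.49, edgeR adjusted p = 0.000846). It was lowest among the Pcx L-/- mice in replicate 1, at 14.1 CPM against 58.1 to 102 CPM, as Gm6614 was. The multidrug pumps Abcb1b and Abcb1a had log2 fold changes of 1.67 (SE 0.32) and 1.41 (SE 0.18). The cation exporter Slc47a1 was lower by 1.55 on the log2 scale (log2 fold change -1.55, SE 0.26), as were the sterol exporters Abcg5 and Abcg8, at -1.24 (SE 0.34) and -1.11 (SE 0.31). The number past the threshold was 8 of 13 with all mice and 5 without Pcx L-/- replicate 4.

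**Figure D5:**
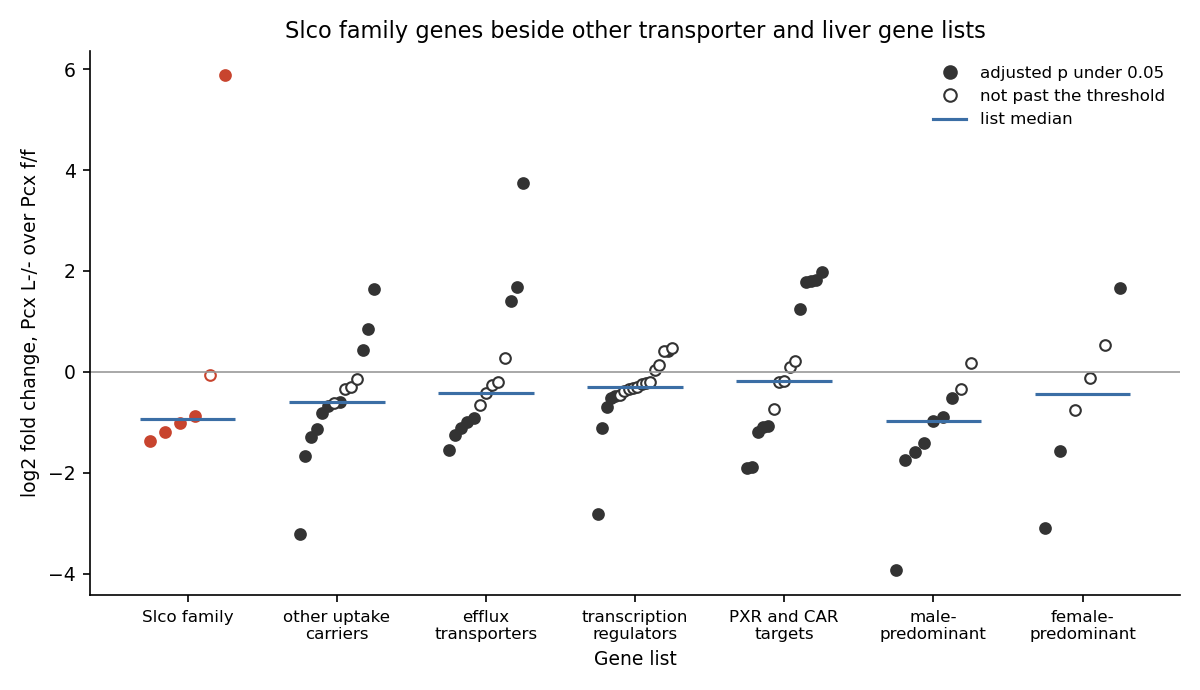
log2 fold change (y axis, Pcx L-/- over Pcx f/f) of the 6 tested Slco family genes (red) and of the tested genes of 6 other lists (black), each sorted from lowest to highest, with filled points for an adjusted p under 0.05 and a blue line at the list median. The medians of the 7 lists lie between -0.98 and -0.19. Gm6614, which was singled out for its rise, is at 5.87, higher than any gene of the other lists.

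Of the transcription factors and receptors known to act on transporter genes, all 18 listed were tested. Of these 5 were lower and 1 higher, beside 13.5% and 14.1% of all genes tested, so the number called was near the share of all genes (27.6%), and their median log2 fold change was -0.30. The constitutive androstane receptor Nr1i3 was lower (-1.11, SE 0.30), with values of the genotypes that overlapped, and the growth hormone receptor Ghr (-0.69, SE 0.14), Ppara (-0.52, SE 0.13) and the aryl hydrocarbon receptor Ahr (-0.47, SE 0.12) were lower without overlap. Cux2, a repressor known from female liver, went from 13.1 ± 7.05 to 1.91 ± 1.71 CPM (SD, n = 4 each; log2 fold change -2.81, SE 0.52, edgeR adjusted p = 0.00364). Stat5a was higher (0.42, SE 0.13). Bcl6 at 0.46 (SE 0.41) and Foxa2 at 0.42 (SE 0.19) did not pass the threshold, and neither did the pregnane X receptor Nr1i2 at -0.47 (SE 0.21) or Hnf4a at -0.31 (SE 0.18), the last 2 chosen after their values were seen. Without Pcx L-/- replicate 4, 3 of the 18 passed the threshold.

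Genes that the receptors Nr1i2 and Nr1i3 are known to switch on, as they do Slco1a4, were split. Of 15 tested, 5 were higher and 5 lower, against 14.1% and 13.5% of all genes, with a median log2 fold change of -0.19. The P450 enzymes Cyp2c37 (-1.91, SE 0.27), Cyp2c29 (-1.89, SE 0.34) and Cyp3a11 (-1.19, SE 0.29) were the lowest, and Gsta1 (1.98, SE 0.49), Cyp2c55 (1.82, SE 0.59) and Akr1b7 (1.80, SE 0.56), each under 3 CPM on average in both genotypes, were the highest. Also higher were Cyp2b10 (1.78, SE 0.48), from a mean of 23.1 to 77.9 CPM with overlap, and Gstm3 (1.25, SE 0.27), from 7.19 to 17.4 CPM. Ces2a (-1.10, SE 0.17) and Alas1 (-1.06, SE 0.35) were also lower. These additions were named after their values were seen. The number past the threshold fell from 10 to 6 without control replicate 1, control replicate 3, Pcx L-/- replicate 3 or Pcx L-/- replicate 4.

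Slco1a1 is among the genes known to be more abundant in male liver. Of 10 other such genes 9 were tested and 7 were lower by edgeR's test, beside 13.5% of all genes, with a median log2 fold change of -0.98, led by Selenbp2 (-3.93, SE 0.57), Hsd3b5 (-1.75, SE 0.48) and Cyp7b1 (-1.59, SE 0.32). The highest were Elovl3 (0.17, SE 0.28) and Cyp4a12b (-0.35, SE 0.29), which did not pass, and Cyp4a12a (-0.51, SE 0.17), which was lower. Of the genes called lower, Hsd3b5 and Cyp4a12a overlapped between genotypes. Selenbp2 was at 80.2 CPM in control replicate 1, against 17.6 to 25.6 CPM in the other controls. The number past the threshold was 4 without Pcx L-/- replicate 3. Of 15 genes known to be more abundant in female liver only 6 had enough reads to be tested, with 2 lower and 1 higher (13.5% and 14.1% of all genes) and a median of -0.43. Abcd2 (-1.57, SE 0.25) was lower and Cyp2a4 was higher (1.66, SE 0.36), while Acot3 (-0.75, SE 0.34), Cyp17a1 (-0.11, SE 0.42) and Cyp2b9 (0.54, SE 0.67) did not pass. Cyp2c29, Cyp2c37 and Cyp7b1 are also named by the study from these libraries and are no independent evidence for their lists.

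Among mice of the same genotype, the genes whose level followed that of Gm6614 most closely were sought over 12242 genes with a mean of at least 1 CPM, as the correlation over 8 mice of log2(CPM + 1) after the mean of the genotype was taken off. The 5 highest were Slc10a3 (Pearson's r 0.995, Spearman's rho 0.952), the N-terminal methyltransferase Ntmt1 (0.992 and 0.905), the kinase Map4k4 (0.992 and 0.976), Gfpt1, the first enzyme of hexosamine synthesis (0.989 and 0.976), and the mitochondrial magnesium channel Mrs2 (0.988 and 0.952). Without Pcx L-/- replicates 1 and 2, the mice farthest from the median, r lay between 0.956 and 0.993 over the other 6. The genotype means taken off were still those of all 8 mice. With 8 points, shared libraries and so many genes to choose from, high values are found for some genes in any case, and they are given as a description. Of the paralogs, Slco1a1 had an r of 0.823 with Gm6614 and Slco2a1 of 0.677, while Slco1a4, Slco2b1 and Slco1b2 had r of -0.56, -0.73 and -0.84. Without the same 2 mice these were 0.741, 0.683, -0.13, 0.448 and -0.03. The 2 mice still entered the genotype means, so these values are not free of them. Spearman's rho over all 8 mice was 0.690, 0.810, -0.48, -0.33 and -0.40 in the same order.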

How the data were processed

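The authors isolated total RNA with TRIzol and RNeasy columns and had libraries sequenced by a company. The submitters' processing notes name STAR 2.5, HTSeq 0.6.1, DESeq2 and mm10 (GRCm38), while the annotation release and strand setting were not found in any source used. The authors deposited raw read counts per Ensembl gene and FPKM, and 100% of FPKM above 0 equal the count over 1 length per gene and the library total (tolerance 1e-06). Symbols from GENCODE M21 matched 34490 of 35275 identifiers. Members and gene lists were chosen with earlier results of these data known. Named were the 9 members, the 3 highest and lowest of 6 lists, regulators past the threshold, the 5 genes most like Gm6614, other Slco genes and Pcx.

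Counts were tested with edgeR 4.0.16 (R 4.3.3): TMM, filterByExpr (minimum count 10, total 15), quasi-likelihood F test on genotype with Benjamini-Hochberg adjustment over 13168 genes and 6 residual degrees of freedom. SE are the log2 fold change over the square root of F. The steps were tested on simulated data. Alternatives were DESeq2 1.42.0 size factors, Wald test and apeglm 1.24.0, library size only, no filter, limma 3.58.1 on log2(FPKM + 1) and log2(FPKM + 0.1), a replicate block, the mouse number series, a 2-fold cutoff, other pseudocounts, and each mouse left out. Depth of 12016242 to 20023108 reads limits genes with few reads. Coding identity and shared words came from GENCODE transcripts and upstream bases from RefSeq (GRCm38.p6). Ces6, Slco1a7, Slco1a8 and Tf were listed but matched no row by symbol, and they may be present under other symbols. Gm6614 may itself carry another symbol in newer annotation. Whether Slco1a7 and Slco1a8 are genes apart from Gm6614 and Gm5724 was therefore not settled here. A few listed items are not reported here.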

Additional observations from a re-analysis of the deposited data

Results flagged for a closer look

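Gm6614 in control replicate 4, at 1.10 normalized CPM (11 reads), stood far from the other 3 controls, which lay between 0.255 and 0.380 CPM (4 to 6 reads). The gap took up 0.852 of the range of the 4 mice, above Dixon's critical value of 0.829. It was the only value to do so among the 12 groups formed by 6 genes and 2 genotypes, and chance flags about 1 in 20 groups. Without this mouse the log2 fold change of Gm6614 was 6.42 in place of 5.87.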

How the results depend on the processing

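The log2 fold change of Gm6614 kept its sign and its side of the threshold under all 17 alternatives, from 3.29 with limma on log2(FPKM + 1) to 6.42 without control replicate 4, and so did Slco1a1 (-1.52 to -1.05). Slco1a4, Slco1b2 and Slco2b1 stayed negative (-1.48 to -0.93, -1.16 to -0.61 and -1.36 to -0.75) and missed the threshold in 1, 2 and 1 of the 17. Slco2a1 changed sign to 0.25 with library size only, to 0.23 and 0.24 with limma on log2(FPKM + 1) and log2(FPKM + 0.1), to 0.10 without control replicate 4 and to 0.03 without Pcx L-/- replicate 1, past the threshold in none, with -0.20 to 0.10 over the mice left out. The differences between Gm6614 and the 5 paralogs lay between 4.96 and 7.65 under their 11 alternatives. With each mouse left out, between 2 and 4 members were lower, between 2109 and 4602 genes were called, and the called numbers were 5 to 11 for efflux transporters, 3 to 9 for regulators, 6 to 11 for PXR and CAR targets and 4 to 9 for male-predominant genes. The cause was not tested, beyond the loss of a mouse. With a 2-fold cutoff 951 genes were called. With a replicate block 2975 genes were called, 1 member higher and 4 lower, and Gm6614 had 5.76. The deviations of mice with the same replicate number had correlations of 0.129, -0.15, -0.13 and -0.09. No other pairs of mice were compared, so these values do not settle whether the numbers pair the mice. Few control reads limit the fold of Gm6614.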

Other observations

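Genes around the Slco run on chromosome 6 had smaller log2 fold changes than Gm6614. Since Gm6614 was singled out for its rise, nothing about the region is read from this. Within the run and 500 kb on either side of it, 9 tested genes were neither Slco genes nor Gm6614, of which edgeR's test called 2 higher and 1 lower (adjusted p under 0.05), near the 27.6% called among all genes tested. The higher ones were Golt1b, a Golgi transport protein, with a log2 fold change of 0.94 (SE 0.18), and Cmas, which activates sialic acid, at 0.31 (SE 0.10). The lower one was Gys2, the glycogen synthase of liver, at -0.73 (SE 0.21). These 3 were named after their values were seen. Pde3a, the next gene beyond Slco1c1, and Pyroxd1, the next beyond Slco1a5, had log2 fold changes of -0.26 (SE 0.25) and 0.37 (SE 0.15) and did not pass.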
